A study of Rattus norvegicus with 48 samples.

Results

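Ligated rat liver slices treated with SB525334 were compared with ligated slices treated with either of 2 multikinase inhibitors, labelled Sora and Nint. The SB525334 group held 9 libraries and the Sora and Nint groups 10 each, so that 29 of the 48 libraries of the study entered the comparison. They were chosen by their sample titles alone. From the level of each gene with SB525334 the mean of the Sora and Nint levels was subtracted, with a weight of 0.5 for each, and this mean is called the multikinase mean below. All 29 libraries came from rats whose bile duct had been ligated (BDL), and the vehicle libraries did not enter the comparison. The other 19 libraries were ligated slices with vehicle (BDL_veh, n = 10) and slices of sham-operated rats with vehicle (Sham_veh, n = 9), which serve here to sort genes by their response to ligation.

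TGF-beta signals through the type I receptor kinase ALK5, which phosphorylates receptor Smads and drives transcription of collagen and other matrix genes in activated stellate cells and portal fibroblasts. SB525334 inhibits ALK5. Sorafenib and nintedanib, as which Sora and Nint are read here, inhibit receptor tyrosine kinases, among them the receptors for PDGF and VEGF, which drive proliferation of the same fibrogenic cells and of endothelium. The labels give only the short forms of both names. In the sample sheet that was deposited, all 9 SB525334 libraries carry a different compound code, and the name SB525334 is taken here from the labels. Doses, exposure times and the rats behind each slice are not in the labels, so p-values reflect how far these libraries differ within a group, a spread that can be technical.

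Precision-cut slices are thin sections of living liver that keep the cell mixture of the organ. Ligation of the bile duct blocks bile flow and leads to cholestasis, bile duct proliferation and portal fibrosis. Total counts of the 29 libraries ranged from 12249470 to 29596987, with group medians of 14632850 for Sora, 13629248.5 for Nint and 14107981 for SB525334. A count of 0 in a library allows a level of up to 0.101 to 0.245 CPM (counts scaled to a common library size). That takes 3 counts as the limit and total counts as the library size. CPM values below are scaled with TMM factors, which adjust library size, unless another scaling is named. These factors were 0.7745 to 0.8994 in SB525334 libraries, so the limit of each is higher than its total-count value. The genes carry Ensembl IDs that could not be matched to symbols, so liver markers, the compound targets and matrix genes could not be looked up. Genes are therefore grouped by how ligation changed them, by level, and by whether they stand in the table of expressed protein-coding genes that the authors deposited.

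The SB525334 libraries were less alike than the others, and 3 of them lay nearer to the multikinase libraries. On the first principal component of the 29 libraries, which held 53.4% of the variance, Sora libraries lay between -47.6 and -21.3 and Nint libraries between -42.4 and -25.8. SB525334 libraries lay between 30.5 and 99.5, on the other side of zero. Libraries 8, 1 and 6 lay at 30.5, 45.2 and 45.6, and the other 6 at 75.3 or above. The median SD of log2 CPM over genes was 0.298 within the SB525334 group, against 0.172 for Sora and 0.159 for Nint. It was 0.234 without libraries 1, 6 and 8, so counts below are also given without them.

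SB525334 separated from the multikinase mean across most of the measured transcriptome. Of 14775 genes tested, 11199 were called at an adjusted p under 0.05 (75.8%; edgeR's quasi-likelihood test with Benjamini-Hochberg adjustment), 5596 of them higher (37.9%) and 5603 lower (37.9%). Genes that differed 2-fold or more were 1222 higher (8.27%) and 1760 lower (11.9%). At 4-fold or more the numbers were 213 and 407, and at 16-fold or more 18 and 33, so lower genes outnumbered higher genes at each of these sizes. For 2222 genes all 9 SB525334 libraries lay above all 20 multikinase libraries (15% of genes), and for 1727 all 9 lay below (11.7%), together 26.7%. Without libraries 1, 6 and 8, the calls were 5588 higher and 5929 lower, of which 1559 and 2523 were 2-fold or more. All 6 remaining libraries then lay above the multikinase libraries in 3307 genes and below them in 2909.

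How these calls divide into higher and lower depends on how libraries are scaled. With libraries scaled by total counts, 2930 genes were higher and 8743 lower, so that 25.1% of the called genes were higher, against 50% with TMM factors. The median difference of all genes moved from -0.02 to -0.38 on the log2 scale. At 2-fold or more, 603 were higher and 3157 lower under that scaling. Genes without overlap between the libraries were then 793 higher and 3742 lower, and 1949 and 1909 with RLE factors. Levels are relative in both scalings, and in bulk tissue fewer cells of a type and less RNA per cell cannot be told apart.

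The groups that were averaged differed less from each other, in the median size of the difference, than SB525334 differed from their mean. Nint and Sora differed in 343 genes (2.32%; edgeR's quasi-likelihood test), 203 higher with Nint and 140 lower, and 40 of them differed 2-fold or more. That count was 3695 with limma-voom with sample weights and 161 with plate column as a factor. With 1 library left out it ran from 166 (without Sora library 6) to 567 (without Sora library 3). The median size of the difference over all genes was 0.49 on the log2 scale for SB525334 against the multikinase mean and 0.10 for Nint against Sora. The median standard errors of both were 0.09 and 0.10. Both came from a fit in which all groups share an estimate of the spread for each gene. Their likeness therefore does not measure the spread within each group. The calls rest on that shared estimate too, although SB525334 libraries varied more within their group than Sora or Nint libraries. SB525334 differed from Sora alone in 10691 genes (72.4%) and from Nint alone in 10746 (72.7%), comparisons that share the SB525334 libraries. The 1222 genes higher by 2-fold or more had a median difference of 1.39 against Sora and 1.36 against Nint, and the 1760 lower genes -1.45 and -1.49. Nint and Sora differed in 34 of the former and 67 of the latter. For 147 of the 343 genes the difference between Nint and Sora was larger than the pooled one, so that for those genes the multikinase mean stands for neither compound.

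The ligation comparison, BDL_veh against Sham_veh, shares no library with the comparison of the compounds. It called 12146 genes (82.2%), 5911 raised (40%) and 6235 lowered (42.2%) by ligation. Of the 5911 raised genes, 2833 were lower with SB525334 than with the multikinase inhibitors (47.9%, against 37.9% of all genes) and 1672 higher (28.3%, against 37.9%). Their median difference was -0.22, against -0.02 over all genes. Of the 6235 lowered genes, 3031 were higher with SB525334 (48.6%) and 1774 lower (28.5%), with a median of 0.14. Genes raised by ligation were thus more often lower with SB525334, and genes lowered by ligation more often higher.

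The lean was largest among the genes that ligation raised most. Of the 961 genes raised 16-fold or more, 596 were lower with SB525334 (62%) and 163 higher (17%), and their median difference was -0.77. Genes raised under 2-fold, 2 to 4-fold and 4 to 16-fold were lower in 47.5%, 44.4% and 42.8% of cases, so the share did not climb steadily with the size of the ligation change. Among genes lowered by ligation, the lean toward higher levels held for changes under 4-fold and was absent in the 374 genes lowered 4 to 16-fold, of which 112 were higher and 120 lower.

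**Figure D1:**
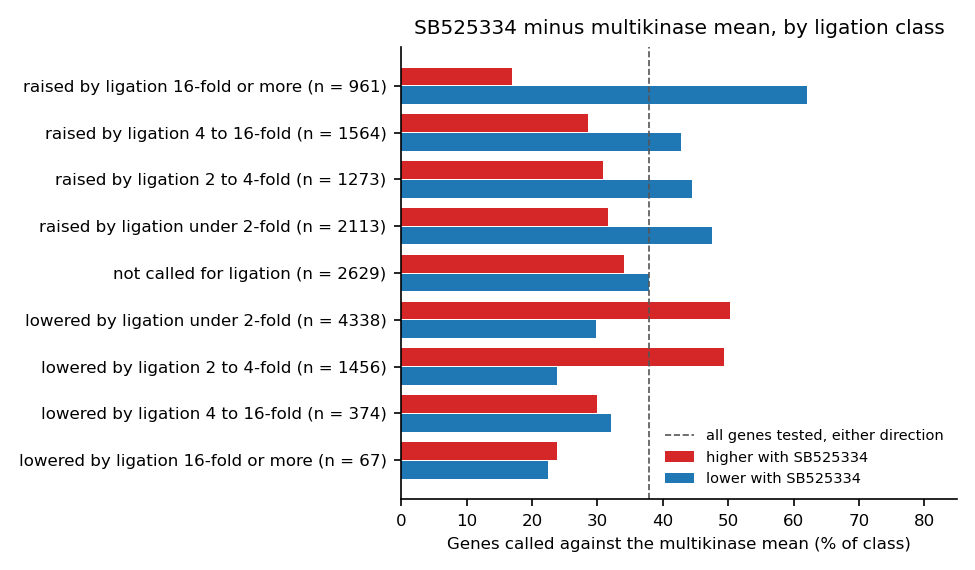
Horizontal bars give the percent of genes in each ligation class that were called higher (red) or lower (blue) with SB525334 than the multikinase mean; the dashed line is the share of all genes tested, 37.9% in each direction. The blue bar is longest, at 62%, in the class raised 16-fold or more, and the red bar exceeds the blue only in classes lowered under 2-fold, 2 to 4-fold and 16-fold or more.

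Total counts shift all genes toward lower levels, so the shares under that scaling are given beside those of all genes, of which 59.2% were lower with SB525334 and 19.8% higher. Of raised genes 65% were then lower and 16.3% higher, near the shares of all genes. Of genes raised 16-fold or more 72% were lower and 11.3% higher. Of lowered genes 27.5% were higher and 49.1% lower, so that lower genes outnumbered higher genes while the share of higher genes was above that of all genes. Relative to the median of all genes under each scaling, raised genes lay at -0.21 with TMM factors and -0.13 with total counts, and lowered genes at 0.16 and 0.20. With the first component of the library quality metrics as a covariate, 38.9% of raised genes were lower and 18.5% higher, and 40.3% of lowered genes were higher and 15.9% lower, where 26.6% of all genes were lower and 28.5% higher. Without SB525334 libraries 1, 6 and 8, 47% of raised genes were lower and 46.4% of lowered genes higher, against 39.6% and 37.3% of all genes.

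Read the other way, genes that were far lower with SB525334 were mostly genes that ligation raises. Of the 1760 genes lower by 2-fold or more, 1200 were raised by ligation (68.2%, against 40% of all genes) and 297 lowered (16.9%, against 42.2%). At 4-fold or more, 348 of 407 were raised (85.5%), and 302 were raised at least 4-fold (74.2%, against 17.1%). The genes higher with SB525334 showed no such lean. Of the 1222 higher by 2-fold or more, 509 were raised by ligation (41.7%) and 512 lowered (41.9%). Without libraries 1, 6 and 8, ligation raised 40.6% of all genes, 58.3% of 2523 lower genes and 41.1% of 1559 higher genes. It lowered 25.5% of those 2523 genes, against 42.7% of all genes. At 4-fold or more 69.8% of 748 lower genes were then raised, so the lean was weaker without these libraries. With total counts, where ligation raised 53.2% of all genes, it raised 69.4% of 3157 lower genes and 52.4% of 603 higher genes. Of the 1760 lower genes, 390 had a mean level below 1 CPM and 883 one of 1 to 10 CPM. Genes tested at those levels numbered 1157 and 4164, and among them lower genes outnumbered higher genes. To be far lower with SB525334, a gene had to be measurable in Sora and Nint libraries, which were all ligated. This favours genes raised by ligation, and the shares of all genes do not allow for it. Ligation shares were not compared among genes of like level, so ligation class and level are not told apart here.

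Levels relative to sham slices show where these genes stood. The 1200 genes lower with SB525334 and raised by ligation had a median log2 level above sham of 2.44 with vehicle, 2.44 with Sora, 2.52 with Nint and 0.81 with SB525334. With SB525334 their median thus stayed above that of sham slices. The 297 lower genes that ligation lowers stood at -1.04, -0.71 and -0.79 with vehicle, Sora and Nint, and at -2.12 with SB525334, farther from sham. The 512 higher genes that ligation lowers stood at -0.93, -0.90 and -0.92, and at 0.40 with SB525334, on the other side of sham. The 509 higher genes that ligation raises stood at 1.76, 1.54 and 1.48, and at 3.09 with SB525334. Both directions away from sham therefore occurred beside both directions toward it. The values with SB525334, Sora and Nint chose these sets and are a description.

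A score per library gives the same comparison without choosing genes by the compounds. For each library the median log2 CPM above the sham mean was taken over the 2525 genes that ligation raised 4-fold or more (17.1%). It was 3.04 ± 0.16 (SD, n = 10) with vehicle, 2.87 ± 0.16 (SD, n = 10) with Sora, 2.99 ± 0.11 (SD, n = 10) with Nint and 2.57 ± 0.12 (SD, n = 9) with SB525334. SB525334 libraries ran from 2.39 to 2.76, Sora libraries from 2.70 to 3.16 and Nint libraries from 2.82 to 3.22, so SB525334 overlapped the low end of Sora and lay below Nint. With SB525334 the mean level was nearer to sham than the multikinase mean in 1656 of the 2525 genes (65.6%), and it lay past sham in 47. The share nearer to sham was not taken over all genes. In the pooled comparison 1265 of the 2525 were lower (50.1%) and 611 higher (24.2%), against 37.9% of all genes in each direction. With total counts the SB525334 range was 2.25 to 2.62, below the lowest Sora library at 2.89. That scaling also moved the median difference of all genes from the multikinase mean from -0.02 to -0.38. With RLE factors SB525334 libraries ran from 2.41 to 2.80 and Sora libraries from 2.71 to 3.19, again with overlap.

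The 441 genes that ligation lowered 4-fold or more (2.98% of genes) varied among the SB525334 libraries. Their score was -2.56 ± 0.13 (SD, n = 10) with vehicle, -1.98 ± 0.15 (SD, n = 10) with Sora, -2.03 ± 0.11 (SD, n = 10) with Nint and -2.23 ± 0.54 (SD, n = 9) with SB525334. Single SB525334 libraries ran from -3.25 in library 4 and -2.85 in library 5 to -1.76 in library 6 and -1.58 in library 8. They therefore spread on both sides of the Sora and Nint libraries, which lay between -2.25 and -1.77. With SB525334 the mean level was nearer to sham than the multikinase mean in 177 of these genes (40.1%), and past sham in 20. This share, too, has no counterpart over all genes. In the pooled comparison 128 of the 441 were higher (29%) and 135 lower (30.6%), against 37.9% of all genes in each direction. Without libraries 1, 6 and 8, 104 of 464 such genes were higher (22.4%) and 208 lower (44.8%). Of all genes 37.3% were then higher and 39.6% lower. With the quality component as a covariate 142 of 587 were higher (24.2%) and 60 lower (10.2%), against 28.5% and 26.6% of all genes. Lower genes thus outnumbered higher genes without those libraries and were outnumbered with the covariate. In each of these fits the share of higher genes was below that of all genes, and the genes in the class were not the same.

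**Figure D2:**
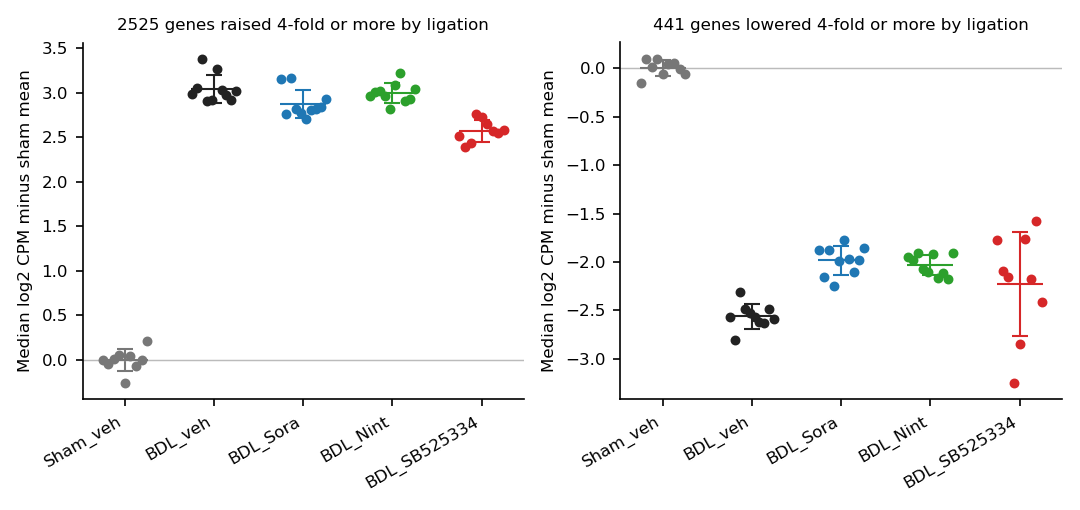
Each point is a library, with the group mean and SD, and the vertical axis is the median log2 CPM minus the sham mean over 2525 genes raised (left) or 441 genes lowered (right) 4-fold or more by ligation. SB525334 libraries lie between 2.39 and 2.76 on the left, mostly below the other ligated groups, and spread from -3.25 to -1.58 on the right. Sham and vehicle values are set apart by the choice of genes.

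A small set of genes was scarce in every SB525334 library and present in every library of both other compounds. In 56 genes every one of the 20 multikinase libraries reached 1 CPM and none of the 9 SB525334 libraries did. Their summed level was 18.2, 21.1 and 27.2 CPM (lowest, median and highest library) with SB525334. It was 172, 196 and 255 CPM with Sora and 182, 229 and 291 CPM with Nint. Vehicle libraries were at 206, 240 and 270 CPM and sham libraries at 25.8, 33.3 and 40.8 CPM. The gap between SB525334 and the Sora and Nint libraries was fixed by the choice of genes and is a description. Vehicle and sham libraries took no part in that choice, and the sham libraries lay below all vehicle libraries.

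Ligation raised 51 of these 56 genes (91.1%, against 40% of all genes), 40 of them 4-fold or more, and lowered 2. In 39 every sham library was also below 1 CPM (69.6%, against 10.8% of all genes), and 53 stood in the protein-coding table. All 20 libraries that had to reach 1 CPM were ligated, which favours genes raised by ligation. The median level of the 56 genes was 2.28 CPM with Sora and 2.47 CPM with Nint. Over all genes tested it was 19.2 and 19.3 CPM, so the shares of all genes are not those of genes of like level. The reverse pattern, at 1 CPM or more in all 9 SB525334 libraries and below it in all 20 others, was found in 9 genes, of which ligation raised 3 and lowered 4. There were 9 such genes with RLE factors, 5 with total counts and 28 without libraries 1, 6 and 8. The set of 56 genes below 1 CPM with SB525334 numbered 59 with RLE factors, 87 with total counts and 117 without libraries 1, 6 and 8. Leaving out libraries raises both counts in part by construction, since fewer libraries must then meet the limit.

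The rule for named IDs took the largest differences in each direction, and all 4 IDs stand in the protein-coding table. These values chose the IDs, and the rule required that SB525334 and multikinase libraries did not overlap. The size of the differences and the lack of overlap are therefore a description. ENSRNOG00000053812 was at 0 CPM in 7 of 9 SB525334 libraries and at 0.573 and 0.607 CPM in libraries 6 and 8. In Sora libraries it was at 19.2, 36.2 and 63.3 CPM (lowest, median and highest) and in Nint libraries at 9.10, 38.4 and 130 CPM. No SB525334 library came near a multikinase library. Vehicle libraries ran from 0.542 to 29.3 CPM with a median of 17.2, and 7 of 9 sham libraries were at 0. The difference was -8.09 ± 0.71 (SE) on the log2 scale, with an adjusted p of 6.38e-14 (edgeR). Over each group's summed counts, 14328 against 16, the multikinase level was 288 times that with SB525334 (95% interval 177 to 503, counting error only). Without libraries 1, 6 and 8, which removes both libraries above 0, the fitted difference was -12.36.

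ENSRNOG00000029459 was a scarce transcript with 1 count in all 9 SB525334 libraries together, in library 7. With the multikinase inhibitors it was at 0.351, 0.956 and 2.15 CPM (lowest, median and highest of 20 libraries), and with vehicle at 0.61, 0.998 and 1.79 CPM. Sham libraries also held 1 count in all. The SB525334 and sham libraries were thus alike in being almost empty of it, and each of the 30 other libraries held it. From 349 counts against 1, the multikinase level was 112 times that with SB525334, with a 95% interval of 20 to 4438 for counting error. The fitted difference was -5.91 ± 0.50 (SE; edgeR, adjusted p = 9.84e-15).

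ENSRNOG00000002460 was high with SB525334 and near 1 CPM with the other compounds. It was at 23.2, 55 and 97.2 CPM (lowest, median and highest) in SB525334 libraries and at 0.189, 0.995 and 2.18 CPM in the 20 multikinase libraries. Sham libraries were at 1.19 ± 0.71 CPM (SD, n = 9) and vehicle libraries at 3.01 ± 1.10 CPM (SD, n = 10). The lowest SB525334 library was above every other library of the study. The difference was 5.84 ± 0.25 (SE; edgeR, adjusted p = 6.23e-25), with 5.74 against Sora and 5.94 against Nint.

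ENSRNOG00000055956 became an abundant transcript with SB525334 and varied widely there. It was at 249, 265.5 and 385 CPM in libraries 8, 6 and 1, at 1027 CPM or more in the other 6, and at 5657 CPM in library 4. The multikinase libraries were at 29.3, 47.3 and 63.8 CPM (lowest, median and highest). Sham libraries ran from 48.9 to 353 CPM, so the 2 lowest SB525334 libraries lay within their range, and all 9 lay above the multikinase libraries. With ligation it fell by 1.16 on the log2 scale (edgeR, adjusted p = 0.00355). The difference from the multikinase mean was 5.37 ± 0.32 (SE; edgeR, adjusted p = 1.24e-19), and 5.88 without libraries 1, 6 and 8.

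**Figure D3:**
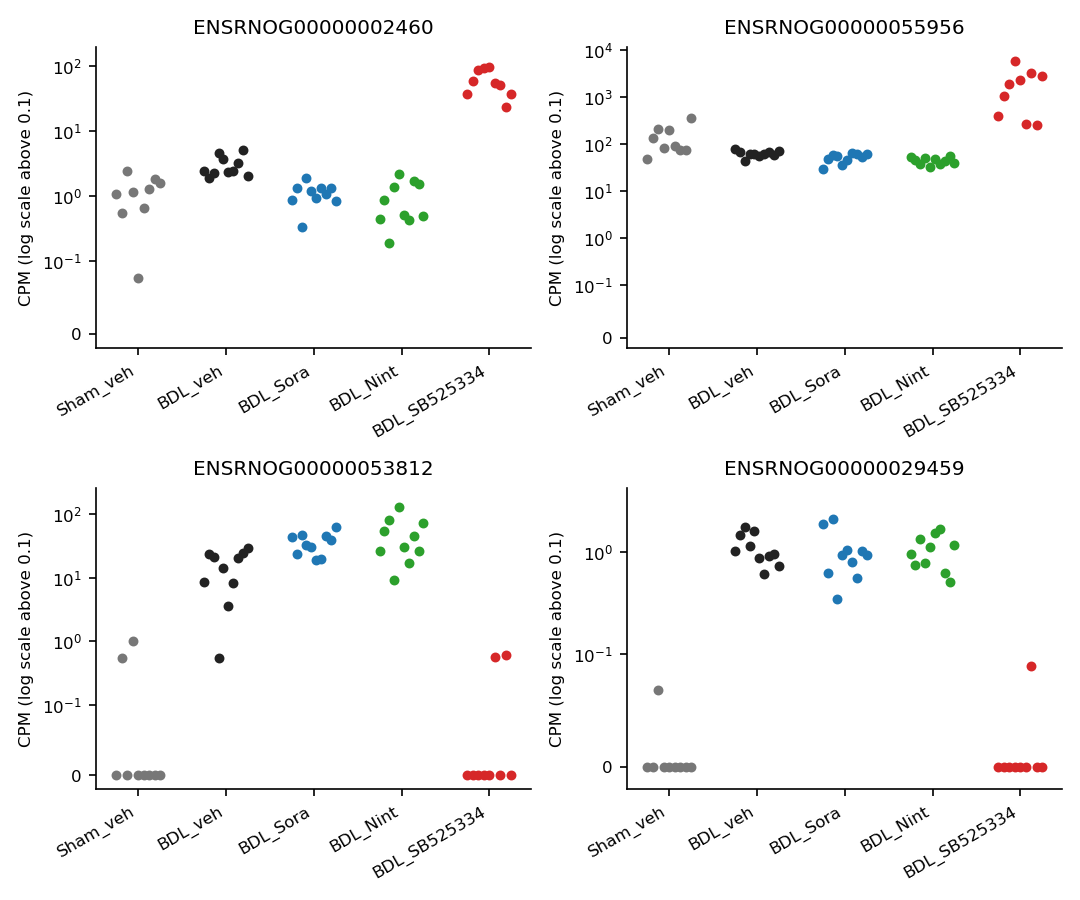
Each point is a library and the vertical axis is CPM, logarithmic above 0.1 and linear below it, for the 4 named IDs in the 5 groups. The upper panels show the 2 IDs higher in every SB525334 library than in any multikinase library, and the lower panels the 2 IDs at or near 0 CPM with SB525334 and with sham, such as 0 CPM in 7 of 9 SB525334 libraries for ENSRNOG00000053812.

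The direction of the difference followed the level of the genes. Of the 1157 genes below a mean of 1 CPM, 12.2% were higher with SB525334 and 46% lower, and of the 4164 genes from 1 to 10 CPM 23.7% and 47.7%. Among the 1813 genes from 100 to 1000 CPM the balance was turned, with 64.5% higher and 18.9% lower. Of the 93 genes at 1000 CPM or more, 57% were higher and 12.9% lower. With total counts the share of higher genes still rose with level, from 6.91% to 40.9%, while at 100 to 1000 CPM lower genes (43.7%) outnumbered higher genes (36.1%). The level classes held the same genes in both scalings, and a change of scaling moves all genes by about the same amount. The median difference went from -0.58 to -0.93 below 1 CPM and from 0.36 to -0.02 at 1000 CPM or more. That the gradient was present in both scalings was therefore fixed beforehand, and the level at which it changed side was not the same. The filter before testing asks for a minimum level in about as many libraries as the smallest group holds. A scarce gene could meet it through the more numerous ligated libraries with vehicle, Sora or Nint. Through SB525334 alone it had to meet it in nearly all libraries of that group. This favours lower genes in the classes of low level, and how far it does so was not tested. The gradient was not taken within ligation classes, so level and ligation class are not told apart.

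**Figure D4:**
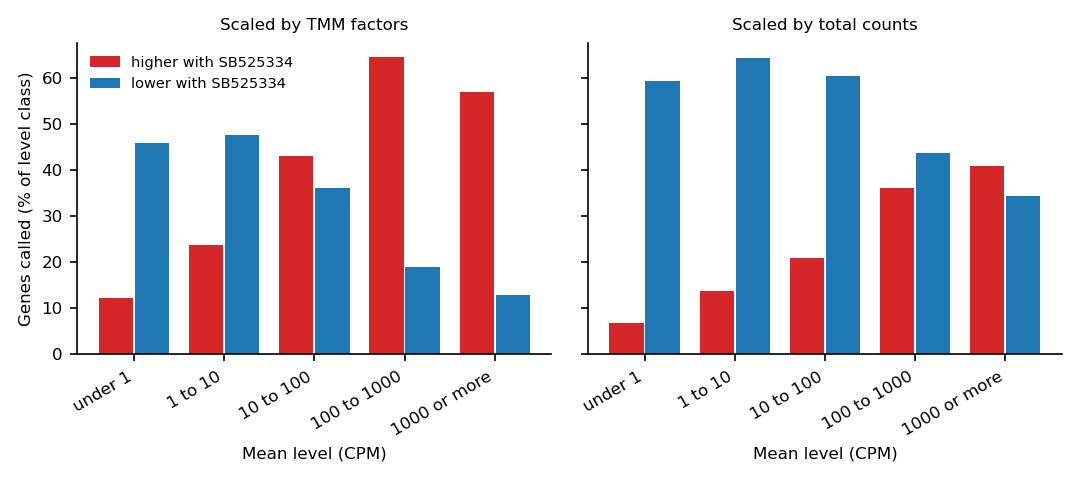
Bars give the percent of genes called higher (red) or lower (blue) with SB525334, by mean level in CPM, with TMM factors on the left and total counts on the right. The share of higher genes rises from 12.2% below 1 CPM to 64.5% at 100 to 1000 CPM on the left, and from 6.91% to 40.9% at 1000 CPM or more on the right.

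With libraries scaled by total counts, SB525334 libraries had fewer genes at 1 CPM or more. They held 12985 ± 208 genes at 1 CPM or more (SD, n = 9), against 13657 ± 125 with Sora and 13722 ± 79.6 with Nint (n = 10 each), and the highest SB525334 library, at 13294, was below the lowest multikinase library, at 13537. The exact permutation test over all arrangements of 9 and 20 libraries gave p = 2e-07, the smallest it can give (adjusted 6.56e-07). Sham libraries held fewer still, 12172 ± 88.4 (SD, n = 9). The 1 CPM limit of the 56 genes above used TMM factors instead. Total counts place SB525334 levels lower, with a median difference from the multikinase mean of -0.38 over all genes, against -0.02 with TMM factors. How many genes reach 1 CPM with TMM factors was not counted. The 93 genes at 1000 CPM or more took 34.2 ± 2.09% of counts with SB525334 (SD, n = 9), against 29.8 ± 1.37% with Sora and 28.8 ± 1.62% with Nint (SD, n = 10 each).

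Transcripts outside the protein-coding table took a larger share of the counts. The 10 most abundant genes outside it took 15.2 ± 3.61% of counts with SB525334 (SD, n = 9; 10.6% to 22.5%), against 8.69 ± 0.40% with Sora and 8.63 ± 0.22% with Nint (SD, n = 10 each). All 10 were called higher, by 0.80 to 1.59 on the log2 scale with TMM factors and by 0.41 to 1.19 with total counts (edgeR). They were ranked by their mean share over all 29 libraries, SB525334 included, so their direction is a description. The class as a whole took 16.7 ± 3.72% of counts with SB525334, against 10 ± 0.43% with Sora and 9.99 ± 0.25% with Nint (SD). Its other 18455 genes took 1.49 ± 0.12%, against 1.33 ± 0.05% and 1.36 ± 0.04%. By number of genes the class was not uniformly higher. Of 955 tested genes outside the table, 355 were higher (37.2%) and 263 lower (27.5%), and of 13820 inside it 5241 were higher (37.9%) and 5340 lower (38.6%).

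Alignment measures of the libraries moved with the compound, and their part in the gene differences was not tested. Of 23 measures, 18 differed at an adjusted p under 0.05 (exact permutation test), and 6 were higher and 1 lower in every SB525334 library. Non-uniquely mapped alignments were 14.4 ± 3.45% with SB525334 (SD, n = 9), 8.77 ± 0.39% with Sora and 8.33 ± 0.16% with Nint (n = 10 each). Mitochondrial alignments were 2.86 ± 0.68% of those mapped, against 1.72 ± 0.10% and 1.51 ± 0.10%, and misc_RNA alignments 2.73 ± 0.58%, against 1.70 ± 0.14% and 1.56 ± 0.06%. Intronic alignments were lower with overlap, 29.97 ± 2.07% against 32.9 ± 1.14% and 35.2 ± 0.82%. SB525334 library 4, with the most non-unique alignments at 20.9%, was also highest for mitochondrial alignments at 4.49% and for ENSRNOG00000055956. Libraries 6, 8 and 1 had the fewest non-unique alignments of their group, 9.85%, 10.9% and 11.3%, and were those nearest to the multikinase libraries on the first component. With the quality component as a covariate 8143 genes were called, against 11199.

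**Figure D5:**
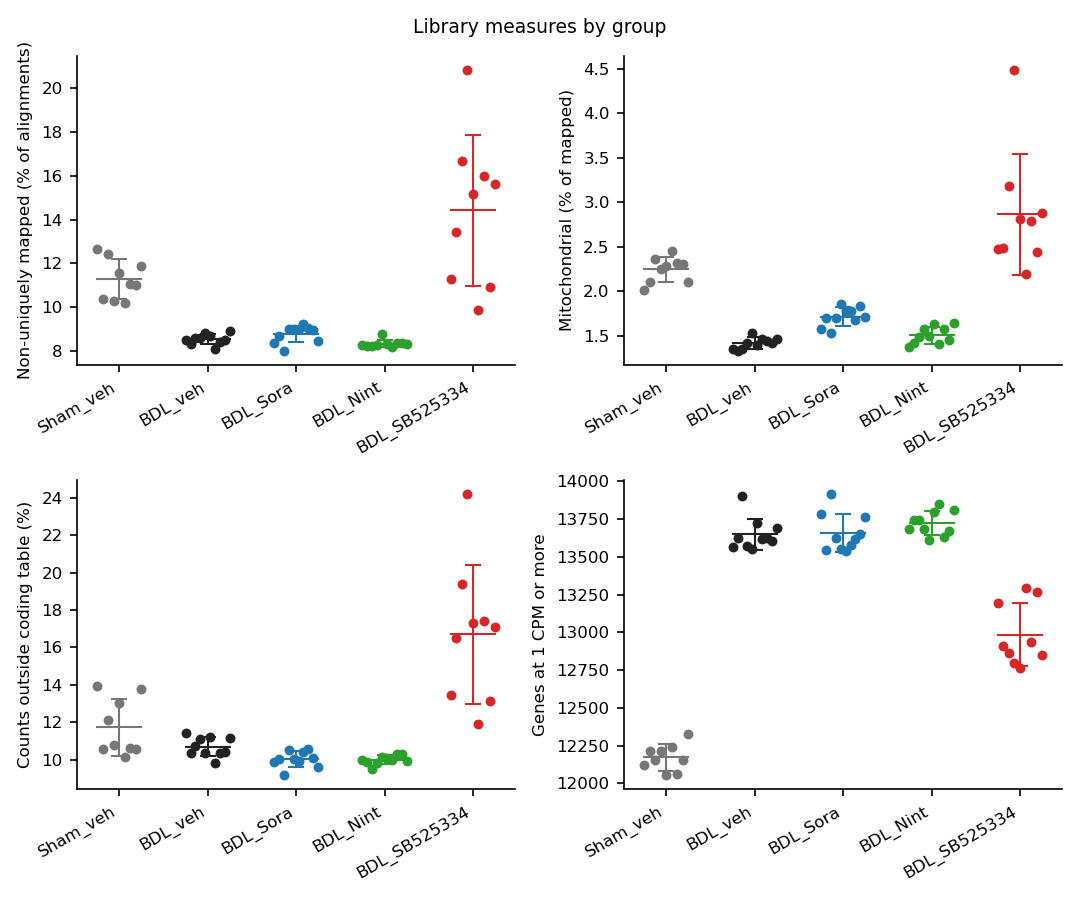
Each point is a library, with the group mean and SD, for the percent of non-unique alignments, the percent of mitochondrial alignments, the percent of counts outside the protein-coding table and how many genes reached 1 CPM; the vertical axes do not start at 0. In all 4 panels the SB525334 libraries, for example with 12985 ± 208 genes at 1 CPM or more, do not overlap the Sora or Nint libraries. CPM in the last panel is scaled by total counts.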

How the data were processed

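RNA-seq libraries of 48 rat liver slice samples were compared. The count table deposited by the authors holds expected counts for 32883 genes, estimated with RSEM against Rnor_6.0, per the submitters' processing notes; 8.02% were not whole (tolerance 1e-06), and all were rounded. The sources used here do not name the aligner, annotation or strand setting, so overlapping, antisense and near-identical genes are uncertain. A log2 CPM table deposited by the authors covers 14418 genes. Scores and other values of 172 quality metrics and a sample sheet were also deposited by the authors. Columns of per-library values left unused numbered 0.

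Genes passing filterByExpr (14775) were scaled with TMM factors and fitted over all 48 libraries, 1 coefficient per group, with edgeR 4.0.16 (glmQLFit robust, glmQLFTest, two-sided; R 4.3.3), in 5 comparisons, with calls at 0.05 after Benjamini-Hochberg adjustment. A prior count of 2 was added for log2 CPM. Library measures were tested with an exact two-sided permutation test (Python 3.11.15, SciPy 1.17.1). The code was checked on simulated data. No pair of libraries within a group was alike within sampling noise (lowest chi-square per degree of freedom 6.24 over 126 pairs).

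The reference table (47357 genes) holds 0 Ensembl IDs, so 0 IDs had a symbol, 29 gene lists were not used, and up to 2 IDs per direction are named: those with the largest called difference whose libraries did not overlap, at a mean of at least 1 CPM in the higher group. Members, lists and rules were chosen with earlier results of these data known. Alternatives were RLE factors, total counts, DESeq2 1.42.0, other filters, limma 3.58.1, replicate block, plate position, a quality component, fewer groups, a fold threshold and left-out libraries. Those on genes whose libraries did not overlap and on the ligation class of 2-fold genes were chosen after seeing the data.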

Additional observations from a re-analysis of the deposited data

Results flagged for a closer look

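Of 87 groups of library values tested, 10 held a highest or lowest library far from the next one, and chance marks about 1 in 20 groups. SB525334 library 4 stood apart in mitochondrial alignments (4.491% of those mapped, next 3.187%) and in mitochondrial rRNA alignments (2.059%). Among Nint libraries, library 3 stood apart in intergenic alignments (15.45%) and rounded total counts (20391997), library 5 in non-unique alignments (8.759%) and library 4 in unmapped alignments (10.56%). Among Sora libraries, library 6 stood apart in rounded total counts (29596955) and unique fragment ranges (74.14%), and library 4 in median insert size (145 bases). ENSRNOG00000029459 was marked in SB525334 library 7 at 0.08935 CPM, which is 1 count where the other 8 libraries had 0.

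The SB525334 difference was not the same size against Sora and against Nint in 343 genes, by the test of Nint against Sora (edgeR), and in 13 of 23 library measures (exact permutation tests, adjusted p from 0.000249 to 0.0387). As Nint minus Sora, in percentage points, these were protein-coding alignments -2.764, exonic -2.494, intronic 2.243, intergenic 0.845, exon junction -0.5943, non-unique -0.446 and mitochondrial -0.2089. The smaller ones were misc_RNA alignments -0.1393, sense read pairs 0.095, lincRNA 0.0903, mitochondrial rRNA -0.06802, ribozyme -0.02886 and processed pseudogene -0.01143.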

How the results depend on the processing

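The pooled comparison called between 8143 (quality component) and 12357 (no filter) genes over the alternatives without a fold threshold, and 10973 to 11329 with 1 library left out. Against a log2 fold threshold of 1 it called 1679 genes, 711 higher and 968 lower; SB525334 against Sora then called 1536, against Nint 1573, Nint against Sora 0 and ligation 4618. Total counts gave 2930 higher and 8743 lower, 603 and 3157 of them 2-fold or more. Of genes lowered by ligation 27.5% were then higher, fewer than were lower, against 19.8% of all genes; relative to the median of all genes they lay at 0.16 with TMM factors and 0.20 with total counts. Without a filter 1956 genes were 2-fold higher, and with a filter of 5 CPM 776 were higher and 1158 lower by 2-fold, as the number of genes tested changed. The count for Nint against Sora depended most on the method, with 594 by DESeq2, 3695 by limma-voom with sample weights, 171 by limma on the deposited log2 CPM and 161 with plate column; the cause was not tested. It ran from 166 (without Sora library 6) to 567 (without Sora library 3), and leaving out Sora library 5 or 8 gave 191 or 228, and Nint library 1 or 7 gave 212 or 195.

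Replicate numbers are shared between groups. Whether they pair slices of 1 rat is not in the labels, and correlations between libraries cannot settle it. The best match of an SB525334 library bore its own number in 1 of 9 cases with Nint and 3 of 9 with Sora. Same-numbered deviations correlated between -0.256 and 0.249 for SB525334 and Nint, over 0.1 in 4 of 9 numbers, and between -0.155 and 0.361 for SB525334 and Sora, in 3 of 9. With a replicate block the pooled comparison called 11102 genes, the single ones 10605 (Sora) and 10683 (Nint), Nint against Sora 310 and ligation 12111. The 4 named IDs kept direction and call in every setting fitted, with ENSRNOG00000053812 reaching an adjusted p of 0.0138. They were chosen for the largest called differences without overlap in the same libraries, so this was largely fixed by the choice.

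Without SB525334 libraries 1, 6 and 8, protein-coding alignments (-2.625 percentage points) and exon junctions (-0.7361) passed the threshold and unmapped alignments (0.4567, exact permutation test, adjusted p = 0.275) did not. Depth limits genes below 0.245 CPM of total counts, and with TMM factors the limit of each SB525334 library is higher than its total-count value.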

Other observations

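Of the 100 most abundant genes with the multikinase inhibitors, 78 were also among the 100 most abundant with SB525334. With TMM factors 52 of these 100 genes were called higher with SB525334 and 14 lower (edgeR), where 37.9% of all genes were called in each direction. With total counts 33 were higher and 41 lower, where 19.8% of all genes were higher and 59.2% lower, so the direction of this group depends on the scaling. The 100 most abundant genes of each library took 35.8 ± 2.20% of its counts with SB525334 (SD, n = 9), 30.7 ± 1.44% with Sora and 29.8 ± 1.63% with Nint (SD, n = 10 each), and 34.6 ± 1.66% in sham slices (SD, n = 9). Non-unique alignments were 11.3 ± 0.92% in sham slices and 8.54 ± 0.24% in ligated slices with vehicle, so on this measure most SB525334 libraries lay above sham slices too. Intronic alignments were 27.4 ± 2.14% in sham slices and 35.6 ± 0.90% in ligated slices with vehicle.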
